A study of Mus musculus with 2 samples.

Results

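The Mir322 to Mir450b cluster is a group of 7 miRNA genes, Mir322, Mir503, Mir351, Mir542, Mir450-2, Mir450-1 and Mir450b, that lie close together on the minus strand of the mouse X chromosome. The genes were chosen by their symbols and shared position in GENCODE M21, not by their counts, and they are 7 of the 2202 miRNA genes that the deposited count files list. The counts come from small-RNA libraries (RNA under 30 bases, per the labels) of whole hearts from 2 male B6CASTF1/J mice at the age of 25 days, which form 1 group without a treatment or a control. B6CASTF1/J animals are first-generation offspring of C57BL/6J and CAST mice. The label text also writes the age with months as its unit, and the age field, which says days, was followed. The 2 libraries, replicate 1 and replicate 2, are numbered as separate biological replicates but carry the same donor identifier. That they come from 2 animals is taken from this numbering, and the spread between them may be partly technical. The comparison that the design leaves is therefore between the 2 hearts and between the members within each heart.

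MicroRNAs are cut from hairpins in longer transcripts, and each mature strand pairs with target mRNAs mainly through its seed, bases 2 to 8 from the 5′ end. Neighbouring hairpins are often cut from a shared transcript and then processed and degraded separately. miR-322 is the mouse counterpart of human miR-424, and in mouse myoblasts miR-322 and miR-503 are known to promote exit from the cell cycle through the phosphatase Cdc25A. In mouse embryos both have been linked to the early cardiac programme of Mesp1-expressing progenitors. By the naming convention for crosses the strain of the dam stands first, and the X chromosome of a male comes from its dam. By that convention these males carry the C57BL/6J copy of the cluster, the strain of the mm10 genome, although the labels do not give the direction of the cross.

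The mature sequences show which members can act on the same targets and which cannot be told apart by counting. RefSeq (build GRCm38.p6) held mature sequences for all 7 members and the hairpin of 6 of them. The 7 genes give 13 named mature strands of 21 to 24 bases with 12 different seeds. The first set below shows 1 strand of each kind in the cluster, with miR-16-5p and miR-125a-5p, made from genes elsewhere, for comparison, and capitals mark the seed.
miR-322-5p: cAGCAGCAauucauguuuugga
miR-503-5p: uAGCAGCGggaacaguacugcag
miR-16-5p: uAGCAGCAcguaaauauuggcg
miR-351-5p: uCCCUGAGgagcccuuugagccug
miR-125a-5p: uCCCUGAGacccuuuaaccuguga
miR-542-3p: uGUGACAGauugauaacugaaa
miR-450a-5p: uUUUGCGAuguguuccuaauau
miR-450b-5p: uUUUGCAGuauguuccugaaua
The seed of miR-322-5p is that of miR-16-5p, and it pairs with UGCUGCU in a target. miR-503-5p shares bases 2 to 7 with miR-322-5p and differs at the last seed base (A8G, counted from the 5′ end, miR-322-5p first), so its full seed pairs with CGCUGCU. miR-351-5p has the seed of the miR-125 family, and miR-542-3p and miR-450a-5p have seeds of their own. miR-450a-5p and miR-450b-5p differ at 7 positions, of which G7A and A8G lie in the seed.

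Mir450-1 and Mir450-2 both give the mature strand miR-450a-5p, the only mature strand of the cluster that 2 genes share. Their hairpins are shown because the shared run, in capitals, decides what could be counted.
Mir450-1 hairpin: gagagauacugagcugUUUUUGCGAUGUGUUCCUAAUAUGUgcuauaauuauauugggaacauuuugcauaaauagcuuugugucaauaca
Mir450-2 hairpin: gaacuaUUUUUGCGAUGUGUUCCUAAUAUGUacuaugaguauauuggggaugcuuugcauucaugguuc
The shared run of 25 bases holds the whole of miR-450a-5p, so a read of that strand matches both loci. Reads placed at several loci stand apart from the gene counts in the deposited files, so the counts of these 2 genes leave out such reads, and their levels below are levels of the remaining reads. Mir450-1 and Mir450b share a run of 19 bases, and no other pair among the 6 hairpins shares more than 10.

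The cluster spans 6353 bases, chrX:53047997-53054349 in mm10. In the direction of transcription Mir322 comes first (53054255 to 53054349), followed by Mir503 (53053984 to 53054054), Mir351 (53053255 to 53053353), Mir542 (53049403 to 53049487), Mir450-2 (53048299 to 53048367), Mir450-1 (53048154 to 53048244) and Mir450b (53047997 to 53048078). The gaps between neighbouring hairpins are 200, 630, 3767, 1035, 54 and 75 bases in that order. None of the 7 overlaps another annotated gene of GENCODE M21, so all are annotated as intergenic. The lincRNA Gm28730 lies in the gap between Mir351 and Mir542 on the same strand (53051194 to 53053159). The noncoding transcript C430049B03Rik ends 696 bases upstream of Mir322, also on the minus strand (53055046 to 53057190).

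The libraries held 13210462 reads in replicate 1 and 14363882 in replicate 2, and 4930853 and 5229819 of these were counted for a miRNA gene in its own direction. Levels are counts per 1000000 assigned counts (CPM), and 1 count is 0.203 CPM in replicate 1 and 0.191 CPM in replicate 2. Reads placed at several loci made up 41.6% and 37.4% of all reads in the same replicates. The heart muscle markers Mir208a, Mir208b and Mir499 were all present, with a sum of 4486 CPM in replicate 1 and 6512 CPM in replicate 2, while the skeletal muscle gene Mir206 was at 6.90 and 5.55 CPM. The heart muscle sum was 1.45-fold higher in replicate 2. Mir208a was 2.62-fold higher there, while Mir208b and Mir499 were near even (1.01-fold and 0.94-fold, replicate 2 over replicate 1). Markers of other cells also differed between the hearts. The red cell genes Mir451a and Mir144 summed to 21812 CPM in replicate 1, against 1161 CPM in replicate 2, 18.8-fold higher in replicate 1. The fibroblast genes Mir21a, Mir214, Mir199a-1 and Mir199a-2 summed to 3416 and 9524 CPM, 2.79-fold higher in replicate 2. Mir21a was 3.47-fold and Mir214 2.23-fold higher there. Mir199a-2 was near even, at 8.52 and 9.56 CPM (1.12-fold), and Mir199a-1 was at 0 counts in both. The endothelial Mir126a was at 56392 and 69422 CPM, the smooth muscle genes Mir143 and Mir145a summed to 30025 and 36447 CPM, and the leukocyte genes Mir150, Mir155 and Mir223 to 4285 and 4855 CPM. The 6 brain genes of the Mir124a and Mir9 groups summed to 2.03 and 1.15 CPM, with 4 of them at 0 counts in both libraries, and the liver gene Mir122 was at 25.6 and 16.1 CPM. The gene copies within the Mir124a, Mir9 and Mir199a groups give the same mature strands, and their counts leave out any read that matches more than 1 copy, so low values there do not show that the strands are absent. In whole tissue, fewer cells of a type and less RNA per cell cannot be told apart.

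All 7 members had at least 10 counts in both libraries, the minimum used here for a detected gene, which 356 of the 2202 listed genes reached. Together the members held 35622 counts in replicate 1 and 34781 in replicate 2, or 0.722% (95% interval by the exact Clopper-Pearson method 0.715 to 0.730%) and 0.665% (0.658 to 0.672%) of assigned counts, a mean of 0.694 ± 0.0406% (SD, n = 2). Intervals here and below cover counting error only. Every member was at 0 counts on the opposite strand in both libraries, and 3 counts, the limit that 0 allows, are 0.608 CPM in the first library and 0.574 CPM in the second.

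Mir322 was the leading gene of the cluster and, by gene counts, the third most abundant of the 36 detected miRNA genes of the X chromosome. It had 25578 counts in replicate 1 and 21045 in replicate 2, or 5187 and 4024 CPM (4606 ± 823 CPM, SD, n = 2), rank 29 of the 356 detected genes by mean level. Ranks use counts that leave out reads placed at several loci, so genes that share a mature strand with another gene can rank too low. Mir322 alone supplied 71.8% of the cluster's counts in replicate 1 and 60.5% in replicate 2. Mir503, whose hairpin lies 200 bases further on and whose mature strand also acts on the cell cycle, was far lower, at 300 and 676 counts, or 60.8 CPM in replicate 1 and 129 CPM in replicate 2 (95.1 ± 48.4 CPM). Per gene, Mir322 lay 85.3-fold above Mir503 in replicate 1 and 31.1-fold above it in replicate 2. These counts pool both strands of a hairpin, so they do not give the levels of the 5p strands, whose bases 2 to 7 are shared.

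Mir351, which has the miR-125 seed, was the second most abundant member, with 7256 and 9583 counts, or 1472 CPM in replicate 1 and 1832 CPM in replicate 2 (1652 ± 255 CPM). Mir542, whose 3p strand is known in human cancer cells for targeting the survival factor survivin, had 2143 and 3061 counts, or 435 CPM in replicate 1 and 585 CPM in replicate 2 (510 ± 107 CPM). The 3 Mir450 genes at the 3′ end were the low part of the cluster, apart from Mir503. Mir450b had 300 counts in replicate 1 and 341 in replicate 2, or 60.8 and 65.2 CPM (63.0 ± 3.08 CPM). Mir450-2 had 31 and 59 counts, or 6.29 CPM in replicate 1 and 11.3 CPM in replicate 2 (8.78 ± 3.53 CPM). Mir450-1 had 14 and 16 counts, or 2.84 CPM in replicate 1 and 3.06 CPM in replicate 2 (2.95 ± 0.156 CPM), the lowest level among detected genes of the X chromosome. The counts of Mir450-1 and Mir450-2 lack reads of the shared miR-450a-5p, so their place below Mir450b is a statement about the counts and not about the amount of RNA.

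**Figure D1:**
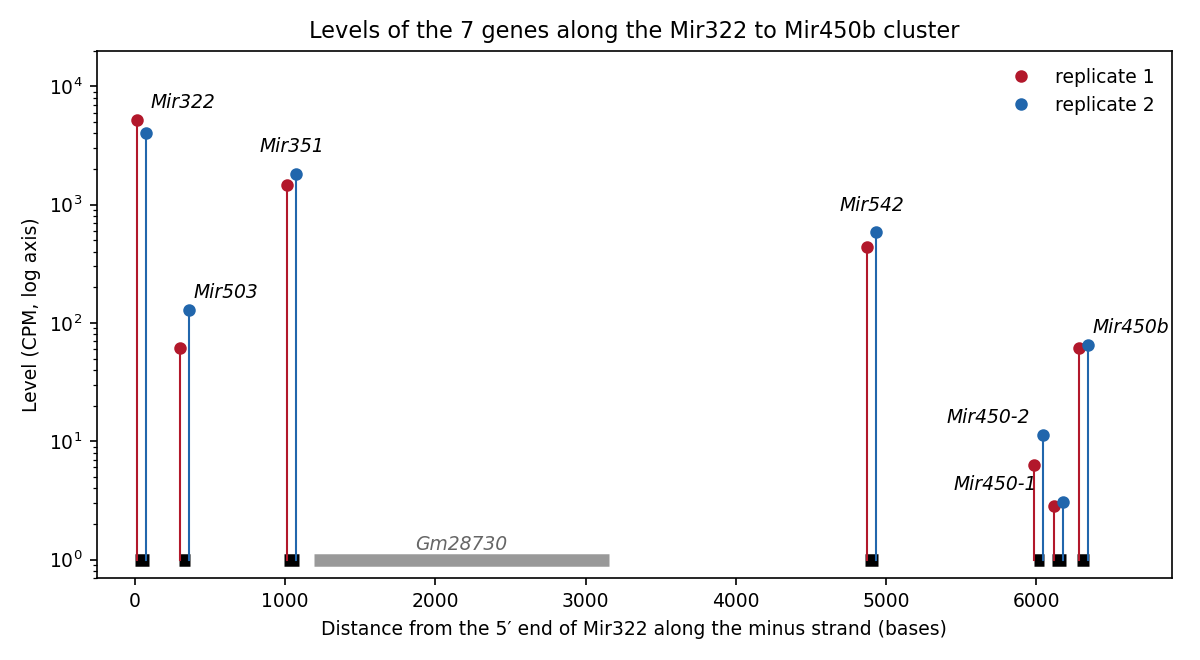
Level in CPM (log axis) of each member in replicate 1 (red) and replicate 2 (blue) against its distance from the 5′ end of Mir322 along the minus strand, with hairpins as black bars and the lincRNA Gm28730 in grey. Mir322 stands highest in both libraries, at 5187 and 4024 CPM, and Mir450-1 lowest, at 2.84 and 3.06 CPM.

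By mean level the order was Mir322, Mir351, Mir542, Mir503, Mir450b, Mir450-2 and Mir450-1, which is not the order along the chromosome. At 5 of the 6 steps in this order both libraries of the higher gene lay above both of the lower one. The exception was the step between Mir503 and Mir450b, which had 300 counts each in replicate 1 (ratio 1, exact 95% interval 0.849 to 1.18) and differed by 1.98-fold in replicate 2 (1.74 to 2.26). The step between Mir322 and Mir351 was 3.53-fold in replicate 1 (3.43 to 3.62) and 2.20-fold in replicate 2 (2.14 to 2.25). The step between Mir351 and Mir542 was 3.39-fold (3.23 to 3.55) and 3.13-fold (3.01 to 3.26) in the same replicates, so it was close to alike in both hearts. No test over samples was run on this order, and small-RNA ligation favours some sequences over others, an effect on these ratios that was not measured.

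From the highest to the lowest member the levels spanned 10.8 log2 units in replicate 1 and 10.3 in replicate 2. The midpoint of both libraries spanned 10.55 log2 units, wider than in each of the other 12 groups of at least 3 detected miRNA genes that follow each other within 10 kb on a strand, which spanned 0.25 to 10.23. Without Mir450-1 and Mir450-2, whose counts lack shared reads, the span was 6.18 log2 units. Of the other 12 groups, 5 had a wider span than this, so the widest span rests on the counts of Mir450-1 and Mir450-2. The other groups were not trimmed in this way, although some also hold genes with a mature strand in common with another gene.

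Between the 2 hearts the cluster did not move as a unit. Mir322 was higher in replicate 1, while Mir503, Mir351, Mir542 and Mir450-2 were lower there, and Mir450b and Mir450-1 were not called. These 5 called members of 7 (71.4%) stand beside 63.5% of all 356 detected genes called by the same exact binomial test with Benjamini-Hochberg adjustment over all detected genes. The shares called higher and lower in replicate 1 were 30.6% and 32.9% of detected genes, against 1 and 4 of the 7 members. The test compares 2 libraries and covers counting error only, so a share near that of all genes is no sign of a response of the cluster. The log2 ratios of the members ran from -1.09 to 0.37 with a median of -0.32, and those of all detected genes had an SD of 0.86 and a median of -0.02.

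Mir322 was 1.29-fold higher in replicate 1 (exact 95% interval 1.27 to 1.31; log2 ratio 0.37; adjusted p = 7.16e-164, exact binomial test). Mir503 had the largest ratio of the cluster and was 2.12-fold lower in replicate 1 (1.85 to 2.44; log2 ratio -1.09; adjusted p = 8.03e-29, exact binomial test). Mir542 was 1.35-fold lower in replicate 1 (1.27 to 1.42; log2 ratio -0.43) and Mir351 1.25-fold lower (1.21 to 1.28; log2 ratio -0.32). Mir450-2 was 1.79-fold lower in replicate 1, with a wide interval from its few counts (1.14 to 2.87; adjusted p = 0.0141, exact binomial test). Mir450b had a log2 ratio of -0.10 (interval -0.33 to 0.13) and Mir450-1 one of -0.10 (-1.25 to 1.02), so for Mir450-1 a 2-fold difference was not detectable at this depth. The log2 ratio of each member kept its sign under every scaling and pseudocount tried, while a filter cannot change a ratio. For Mir450b and Mir450-1 the sign itself is unresolved, because their intervals include 0.

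The sum of the 7 hid these opposite directions. It was 1.09-fold higher in replicate 1 (1.07 to 1.10), at 7224 CPM against 6651 CPM in replicate 2. The 6 members without Mir322 were 1.29-fold lower in replicate 1 (1.26 to 1.32), at 2037 CPM in replicate 1 and 2626 CPM in replicate 2. The red cell and fibroblast markers given above also differed between the hearts, and their part in these ratios was not tested.

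**Figure D2:**
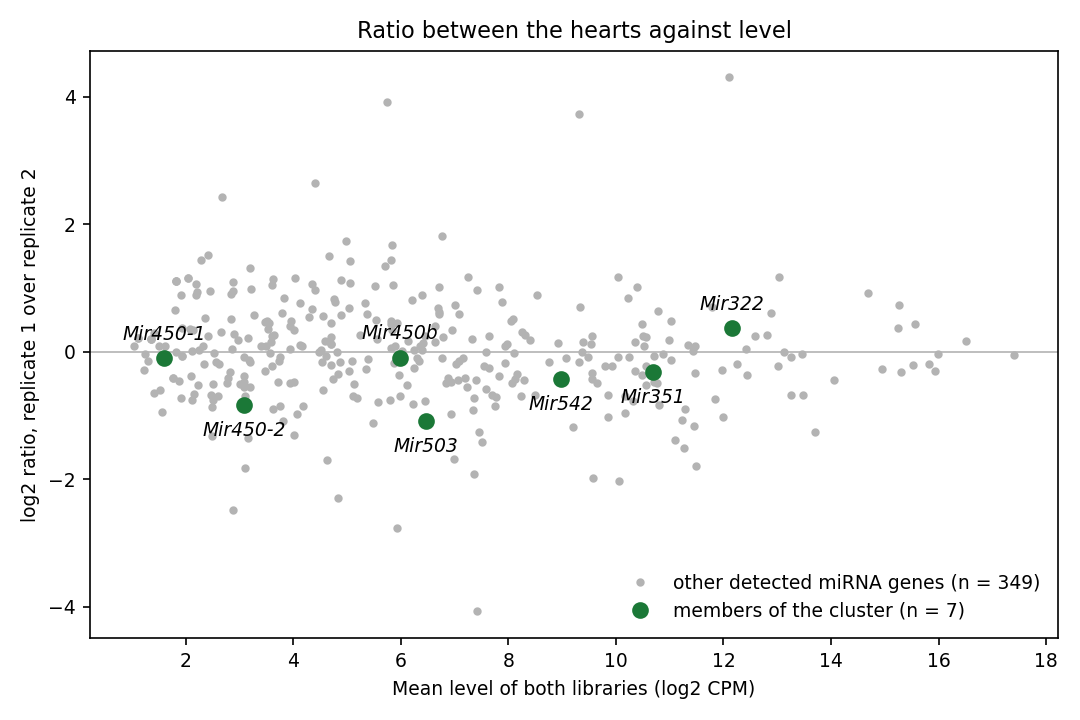
The log2 ratio of replicate 1 over replicate 2 against the mean level in log2 CPM for the 7 members (green) and the other 349 detected miRNA genes (grey). Mir322 lies above 0, at 0.37, the other 6 members lie below it, with Mir503 lowest at -1.09, and all 7 lie within the cloud of the other genes.

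Ratios within a library do not depend on how the libraries were scaled, so the members were also compared with each other. Of the 21 pairs of members, 10 had a ratio called different between the libraries (Fisher's exact test, two-sided, adjusted over the 21 pairs). Like the binomial test, this test covers counting error only and not other variation between libraries. Mir322 was part of 5 of these 10 pairs. The number of Mir322 counts per Mir503 count was 85.3 in replicate 1 and 31.1 in replicate 2, a 2.74-fold change (adjusted p = 3.48e-50, Fisher's exact test). Per Mir351 count there were 3.53 and 2.20 counts of Mir322, a 1.61-fold change (adjusted p = 4.12e-150), and per Mir542 count 11.9 and 6.88, a 1.74-fold change (adjusted p = 1.98e-77, Fisher's exact tests). Mir351 and Mir542, on either side of Gm28730, changed little in their ratio, with 3.39 Mir351 counts per Mir542 count in replicate 1 and 3.13 in replicate 2, a 1.08-fold change (adjusted p = 0.0325, Fisher's exact test). Mir503 moved away from both, with a 1.71-fold lower ratio to Mir351 and a 1.58-fold lower ratio to Mir542 in replicate 1 (adjusted p = 7.42e-14 and 2.18e-09, Fisher's exact tests).

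Unequal ratios were not particular to this cluster. With adjustment over all pairs of detected genes in runs with gaps of at most 10 kb on a strand, 42.2% of the 659 pairs outside the cluster were called, and 10 of the 21 member pairs (47.6%). The log2 ratios of the members ranged over 1.45 units, the median range of the other 12 groups was 1.34, and 5 of the 12 had a wider range. In 7 of the 12, genes were called in both directions, as in this cluster.

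Mir322 shares its seed with the miR-15, miR-16, miR-195 and miR-497 genes, a family known for restraining cyclins and other cell cycle genes, and in mouse hearts miR-195 is linked to the arrest of cardiomyocyte division after birth. Of the 8 genes named for this family outside the cluster, which include Mir497b although RefSeq gives its mature strand another seed, 6 were detected, and all 6 differed between the hearts, 3 higher in replicate 1 and 3 lower, beside the 63.5% of all detected genes. By gene counts Mir15b was the most abundant relative, at 2852 CPM in replicate 1 and 4772 CPM in replicate 2. Mir322 thus lay above Mir15b in replicate 1 and below it in replicate 2. In replicate 1 Mir195a had 2208 CPM, against 1422 CPM in replicate 2, 1.55-fold higher in replicate 1 (1.51 to 1.60). Mir16-1, at 1915 and 945 CPM, was 2.03-fold higher there (1.96 to 2.10), and Mir16-2, at 309 and 181 CPM, was 1.71-fold higher (1.58 to 1.86). Mir15a, at 895 and 1047 CPM in replicates 1 and 2, and Mir497, at 604 and 672 CPM, were both lower in replicate 1.

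Of the assigned counts of the 11 listed genes with exactly this seed in RefSeq, Mir322 held 37.1% in replicate 1 (Clopper-Pearson 95% interval, exact, 36.8 to 37.5%) and 30.8% in replicate 2 (30.5 to 31.2%). These are shares of gene counts, which pool both strands of each hairpin and, for Mir16-1 and Mir16-2 with their common mature strand, leave out reads placed at several loci. They are not shares of the molecules that carry the seed. Of the undetected genes of the family, Mir195b and Mir497b had 1 and 3 counts in replicate 1 and 0 in replicate 2. Mir497b lies opposite Mir497, and its counts are those listed for Mir497 on the opposite strand. Mir6342, Mir6353 and Mir6419, which carry the seed by sequence alone, were at 0 counts in both libraries.

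Mir351 shares its seed with Mir125a, Mir125b-1 and Mir125b-2, the mammalian relatives of the worm timing gene lin-4. All 3 were lower in replicate 1, as Mir351 was, with log2 ratios from -1.25 to -0.34 against -0.32 for Mir351, beside 32.9% of all detected genes called lower there. Mir125a led at 7754 CPM in replicate 1 and 12350 CPM in replicate 2, 1.59-fold lower in replicate 1 (1.57 to 1.61). Mir125b-1 was at 256 and 324 CPM and Mir125b-2 at 114 and 271 CPM in replicates 1 and 2, and these genes also share a mature strand. Mir351 held 15.3% of the counts of the 6 listed genes with this seed in replicate 1 (15.0 to 15.7%) and 12.4% in replicate 2 (12.2 to 12.6%), again as shares of gene counts. Mir6367 and Mir6394, the other listed genes with this seed, were at 0 counts. A further seed match is that of miR-542-5p with Mir6966, a gene at 6 and 13 counts in replicates 1 and 2. The seed of miR-450a-1-3p and miR-450b-3p is also that of Mir6352, which was at 0 counts.

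**Figure D3:**
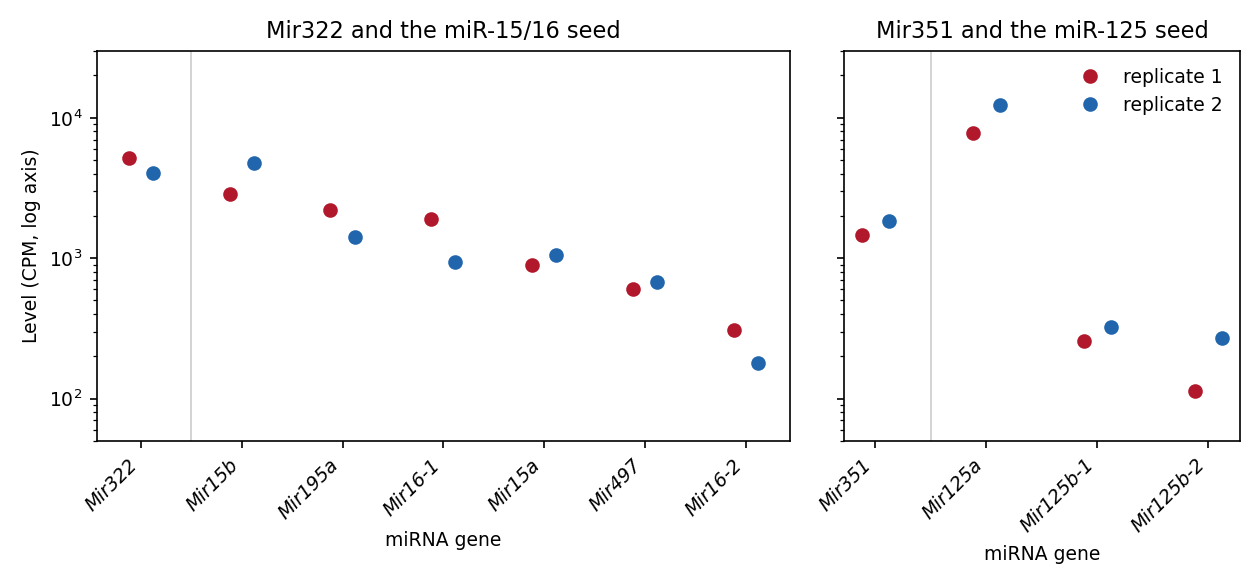
Level in CPM (log axis) of Mir322 and its detected relatives with the miR-15/16 seed (left) and of Mir351 and its relatives with the miR-125 seed (right) in replicate 1 (red) and replicate 2 (blue). Mir322 and Mir15b change places between the libraries, and Mir125a lies above Mir351 in both.

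**Figure D4:**
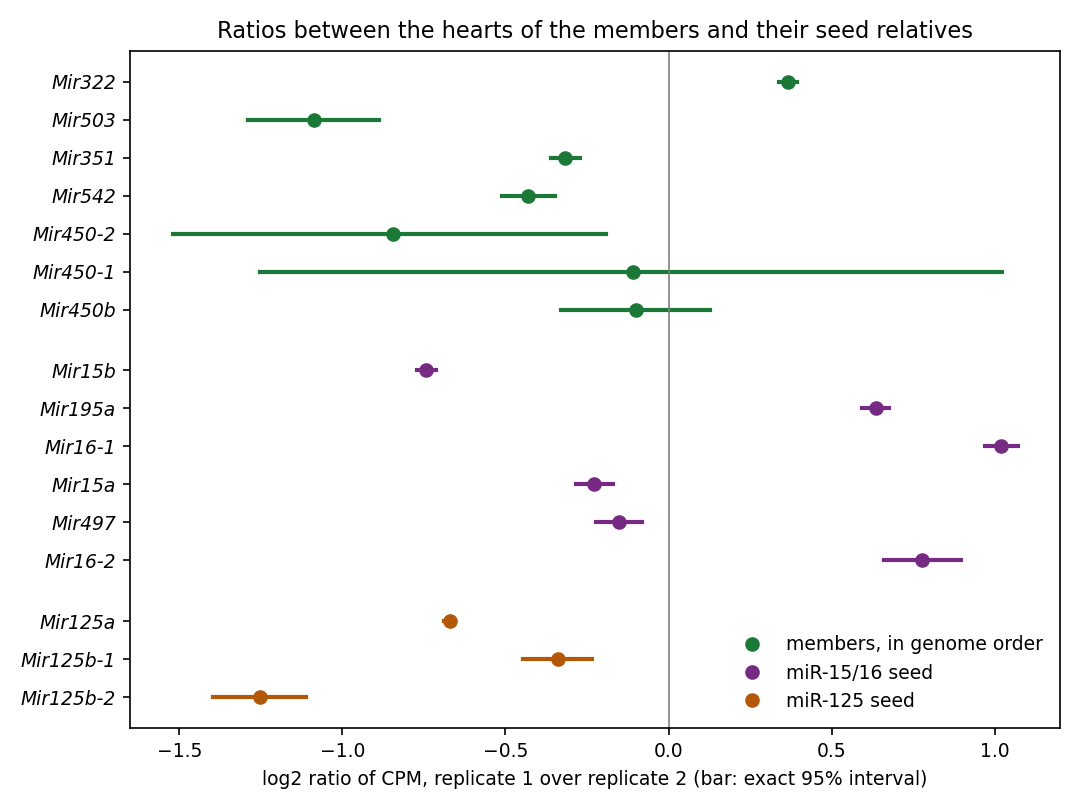
The log2 ratio of CPM, replicate 1 over replicate 2, of the 7 members and their detected seed relatives, with exact 95% intervals of counting error as bars. Mir322, Mir195a, Mir16-1 and Mir16-2 lie above 0, all 3 genes with the miR-125 seed lie below it, and the intervals of Mir450-1 and Mir450b include 0.

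The other 29 detected miRNA genes of the X chromosome had a median log2 ratio of 0.08, with 8 called higher in replicate 1, 9 lower and 12 not called. Among the members the median was -0.32 with 1, 4 and 2 in the same classes, and 61.1% of the 36 detected X-linked genes, members included, were called in either direction. By gene counts the most abundant of the 29 X-linked genes outside the cluster were Mir652 at 8954 and 8948 CPM in replicates 1 and 2, Mirlet7f-2 at 6662 and 5617 CPM, and Mir221 at 1335 and 2368 CPM. The detected genes nearest to Mir322 in level over both libraries were Mir744 on chromosome 11, Mir30e on chromosome 4 and Mir320 on chromosome 14, at Euclidean distances of 0.42, 0.43 and 0.54 in log2 CPM. Those nearest to Mir503, the member with the largest ratio, were Mir24-1 on chromosome 13 (distance 0.22), Mir500 on the X chromosome (0.39) and Mir669o on chromosome 2 (0.65). With 2 libraries this likeness rests on 2 values per gene.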

How the data were processed

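MicroRNA gene counts of 2 heart libraries were analysed. The authors deposited raw counts of reads for each miRNA gene, as whole numbers, mapped to mm10 with GENCODE M21, per the files' accompanying text, with 1 column without strand and 1 for each strand. The aligner, like the counter, is named by no source used here. The column of the gene's strand was used, and 4 entries of reads given to no gene were left out of totals. CPM are counts per 1000000 assigned counts, with 0.5 counts added before log2 was taken.

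Genes with at least 10 counts in both libraries were compared by exact conditional binomial tests (scipy 1.17.1), with Benjamini-Hochberg adjustment at 0.05, because 1 group leaves edgeR's quasi-likelihood test no contrast. edgeR 4.0.16 (TMM) and DESeq2 1.42.0 gave alternative scalings, and edgeR a common biological coefficient of variation of 0.386. Tests were checked on simulated data that held counting error only. That check does not cover variation between libraries beyond counting error. Pairs of members were compared by Fisher's exact test, and intervals are exact at 95%.

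The members were set by symbol and position. Seed relatives and markers were chosen with earlier results of these data known. Named genes are the members, their seed relatives, the 3 detected genes nearest in level to the most abundant member and to the one with the largest ratio, the 3 most abundant other X-linked genes, and the cell type markers. Sequences are from RefSeq, build GRCm38.p6, whose hairpin coordinates match those of GENCODE M21 for the 6 members it holds.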

Additional observations from a re-analysis of the deposited data

How the results depend on the processing

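The alternative scalings, the lower filter and the unstranded column left 5 members called. With a minimum of 100 counts 4 of 5 testable members were called, because Mir450-1 and Mir450-2 were not tested. The pseudocount does not enter the test, so it could not change a call. Each member had the same counts in the unstranded column, so only the totals and the other genes could differ there. The log2 ratio ran from 0.28 to 0.41 for Mir322 and from -1.17 to -1.04 for Mir503, and no member changed sign. Over all genes 180 to 237 were called, the fewest with a minimum of 100 counts and the most with a minimum of 1 count. The number of genes tested changed with the filter, so these counts give no share to set beside the members. Scaling to all reads lowered the cluster's share to 0.256% and the median of the members' mean levels to 34.9 CPM, against 0.694% and 95.1 CPM. The unstranded column, whose total is smaller, gave a share of 0.955%. Leaving out a replicate gave shares of 0.665 to 0.722% and medians of 60.8 to 129 CPM, and 5 or 6 of the 6 steps in the order of levels. The 10 pairs of members were called with either adjustment. In the main setting 9 seed relatives were called, which were all of those detected, beside 63.5% of all detected genes. With the unstranded column 8 were called, and the number tested with that column is not given here. The adjustment over all neighbouring pairs, and the span without Mir450-1 and Mir450-2, were chosen after seeing the data. The few counts of Mir450-1 and Mir450-2 limit their ratios.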
